A study of Mus musculus with 3 samples.

Results

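Potassium, sodium and pacemaker channel genes were examined in mouse embryonic hearts at E15.5. Members were the gene probes whose deposited name begins with Kcn, or with Hcn or Scn followed by a digit. The rule found 104 of the 27630 genes and transcripts named on the array, with 163 of its 41174 gene probes, and 158 of these probes carried such a name in the files of all 3 arrays. Each of the 3 two-colour Agilent arrays, numbered as replicates 1 to 3, compared heart RNA pooled from a pair of Lrrc10-/- embryos, labelled with Cy5 (red), with RNA pooled from a pair of wild-type littermates (Lrrc10+/+), labelled with Cy3 (green). All animals were on a C57BL/6 background and came from matings between Lrrc10+/- parents. No dye swap was made, so genotype and dye cannot be told apart. For the wild-type channel an adult age is entered beside the embryonic one, and the embryonic age, given by the remaining labels, was used. The comparison asks which genes differ in expression in hearts without Lrrc10, a leucine-rich repeat protein of cardiomyocytes.

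The members encode the membrane proteins that shape the cardiac action potential, with their accessory subunits. Sodium channels carry the rapid upstroke, voltage-gated and inward-rectifier potassium channels repolarize the cell and hold its resting potential, and Hcn channels carry the pacemaker current of the sinus node. A pore-forming alpha subunit is modified by small partners such as the Kcne, Kcnab and Kcnip proteins, and many members of the families are known mainly from neurons. In the fetal heart the working myocardium still has some automaticity, and the balance of these currents changes up to and after birth.

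The targeted gene went against the labels. Signals of the Lrrc10 probe were 6294, 8521 and 12637 in the channel labelled Lrrc10-/- and 281, 237 and 200 in the channel labelled Lrrc10+/+, a log2 ratio of 4.41 ± 0.40 (SD, n = 3; limma adjusted p = 0.000387). Whether this probe lies inside the deleted part of the gene is not given in the sources used here. Channels are therefore named by their labels throughout, and each ratio below is of the channel labelled Lrrc10-/- over the channel labelled Lrrc10+/+. The heart label was borne out by cardiomyocyte markers, all 9 of which were detected, with mean log2 signals of 14.55 to 15.44 in the 6 channels. Hepatic markers set replicate 2 apart: the median log2 ratio of the 3 tested was -2.74 there, against 0.81 and 0.33 on replicates 1 and 3. For alpha-fetoprotein (Afp) the log2 ratio was -5.15 on replicate 2. The part of such tissue in the channel ratios was not tested.

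Detection was limited and differed between arrays. A probe is called well above background by the scanner software's own flag. On replicate 1 the flag was set for 87.7% of the channel probes in Cy5 and 87.1% in Cy3, and on replicate 2 for 76.1% and 94.5%. On replicate 3 it was set for only 46.6% and 53.4%. In all, 69 channel probes for 55 genes were well above background in both channels on all arrays, or 42.3% against 61.7% of all gene probes. A further 22 probes passed on all arrays in 1 channel only, 17 of them in Cy3 and 5 in Cy5, which left 91 tested probes for 70 genes. The other 72 probes were not tested, and 7 of them were above background nowhere. The median signal was 156 for tested and 25.7 for untested channel probes. Over all channel probes it was 62.2, against 164 for all gene probes. No channel probe was saturated.

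No probe was tested for 34 genes. These included the sodium channel genes Scn1a, Scn3a, Scn7a, Scn9a and Scn11a and 14 of the voltage-gated potassium channel genes. Also among them were the inward rectifiers Kcnj1, Kcnj6, Kcnj10 and Kcnj14, and the large-conductance pore Kcnma1. Heart current genes without a tested probe included Kcnip2, Kcnk2 and Kcnn3. Kcnip2 encodes the accessory subunit of the transient outward current. Its probe gave 310, 848 and 22.9 in the channel labelled Lrrc10-/- and 278, 1118 and 24.4 in the channel labelled Lrrc10+/+, so it was bright on replicates 1 and 2 and dim in both channels of replicate 3. Dim probes on this array set a limit to detection, and such values do not show that a gene was silent.

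Signals were ranked by the brightest probe of each gene, as the geometric mean of its 6 processed signals. The brightness of a probe also depends on its sequence, so this is an order of probes rather than of transcript amounts. Kcne1, which with Kcnq1 forms the slow delayed rectifier, had a geometric mean of 17311, at the 96.3th percentile of all gene probes. Kcnj8, a pore subunit of ATP-sensitive potassium channels, stood at 8714. Kcng2, an electrically silent subunit that modifies other voltage-gated channels, stood at 5435 and Kcnq1 at 4721. The ranges of neighbours in this order overlapped, as with 3917 to 8350 for Kcng2 and 3866 to 6185 for Kcnq1.

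Below these, from 4071 down to 1065, came Kcnmb4, Kcne1l, Kcnq1ot1, Kcne3, Kcnn2, Kcnd2, Kcna5, Kcnk6, Kcnh2 and Kcnj4. Of the 15 brightest genes, 11 belong to a list of 35 genes known to carry or modify heart currents, of which 34 were on the array. Kcnq1ot1 is not a channel but a long RNA read from the opposite strand of the Kcnq1 locus. The sinus node pacemaker gene Hcn4 ranked 33rd, and its brightest probe gave 234, 287 and 231 in the channel labelled Lrrc10-/- and 210, 168 and 114 in the other. Kcnj2, the main inward rectifier of adult ventricular cells, ranked 46th at a mean of 115.

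**Figure D1:**
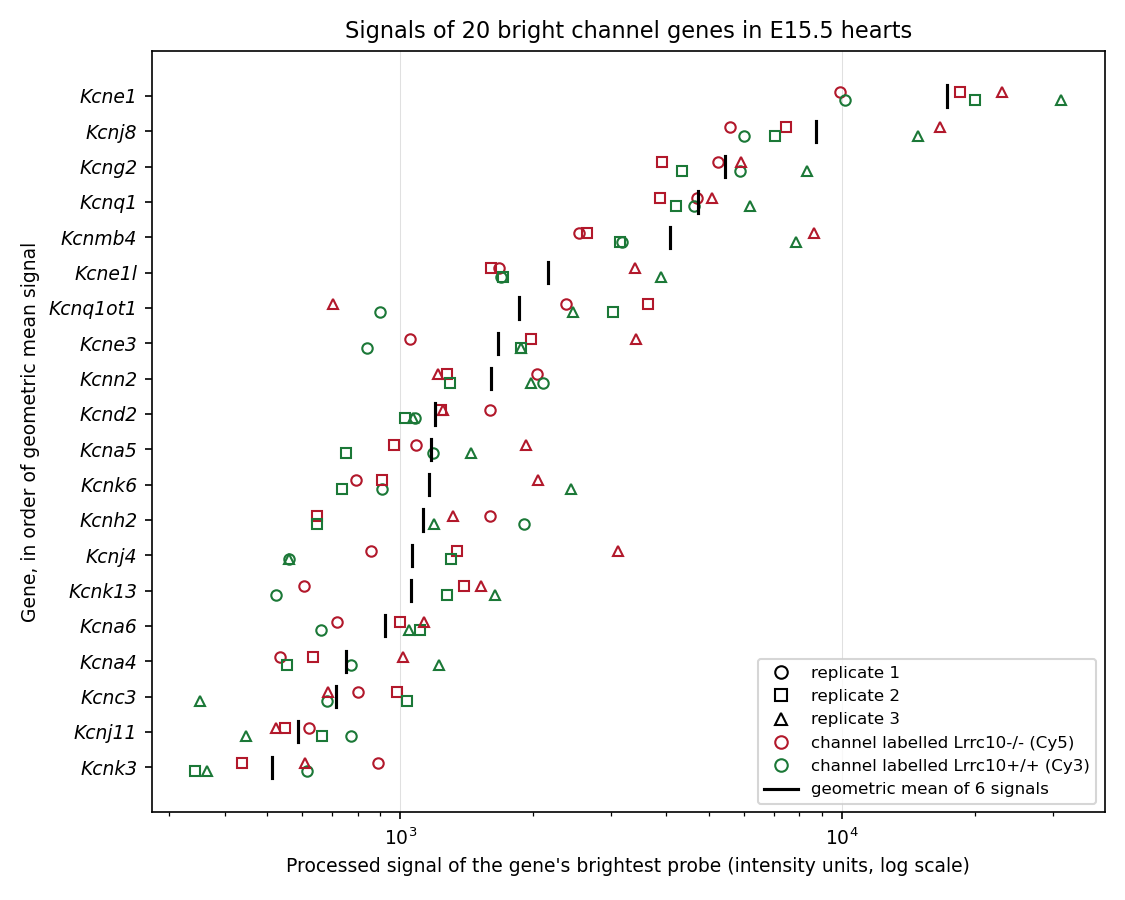
Processed signal (intensity units, log axis) of the brightest probe of 20 bright channel genes, with 1 symbol per array, red for the channel labelled Lrrc10-/- and green for the channel labelled Lrrc10+/+, and a black bar at the geometric mean of the 6 signals. Kcne1 (17311) and Kcnj8 (8714) have the highest means shown, and replicate 3 lies highest in both channels for each of them.

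Few channel probes differed between the labelled genotypes. Log2 ratios were tested against 0 with limma, with Benjamini-Hochberg adjustment across the 28330 probes that were tested. At an adjusted p under 0.05, 1 of the 91 tested channel probes was higher in the channel labelled Lrrc10-/-, which is 1.10%, against 1.39% of all tested probes. None was lower, against 0.00353% of all. At an unadjusted p under 0.05, 11 channel probes were higher and 1 was lower, or 12.1% and 1.10%, where all tested probes gave 9.07% and 4.26%. The 11 include the Kcnip4 probe, which was tested only through Cy5, the channel in which it was the brighter. With the deposited log ratios and a change of at least 1.2-fold on all 3 arrays, 7 channel probes were higher and 2 lower. These are 7.69% and 2.20%, against 3.55% and 1.7% of all tested probes. The 7 were of Kcne3, Kcnip4, Kcnk3 (both probes), Kcnt1, Kcnk12 and Scn8a. The 2 were of Kcnab3 and Kcnj16, which like Kcnk12 and Scn8a were named after their values were seen. Of the 7, the probes of Kcnip4, Kcnk12 and Scn8a were above background on all arrays in Cy5 alone, and both of the 2 in Cy3 alone, so these 5 were tested only through the channel in which they were the brighter. The adjusted counts rested on which arrays entered: without replicate 1 or replicate 2 no channel probe was called, and without replicate 3, 6 were called higher and 1 lower. Those 6 are 6.59% of the tested channel probes and the 1 is 1.10%, where without replicate 3 5.49% of all tested probes were called higher and 0.875% lower. Nothing says whether the pools came from separate litters, so p-values measure only the spread between these samples.

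Across the channel probes the ratios lay close to 0. Their median log2 ratio was 0.03 and that of all tested probes 0.01, and 74 of 91 had a mean change under 1.2-fold. Ratios were above 0 on all 3 arrays for 28 probes and below 0 on all 3 for 10, or 30.8% and 11.0%, beside 19.1% and 17.4% of all tested probes. The median SD over the 3 arrays was 0.17 for channel probes and 0.20 for all. Between pairs of arrays, log2 ratios of the 91 probes had Pearson correlations of 0.36, 0.32 and 0.26, a description across probes of which several belong to 1 gene. In pooled hearts, fewer cells of a type and less RNA per cell cannot be told apart.

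**Figure D2:**
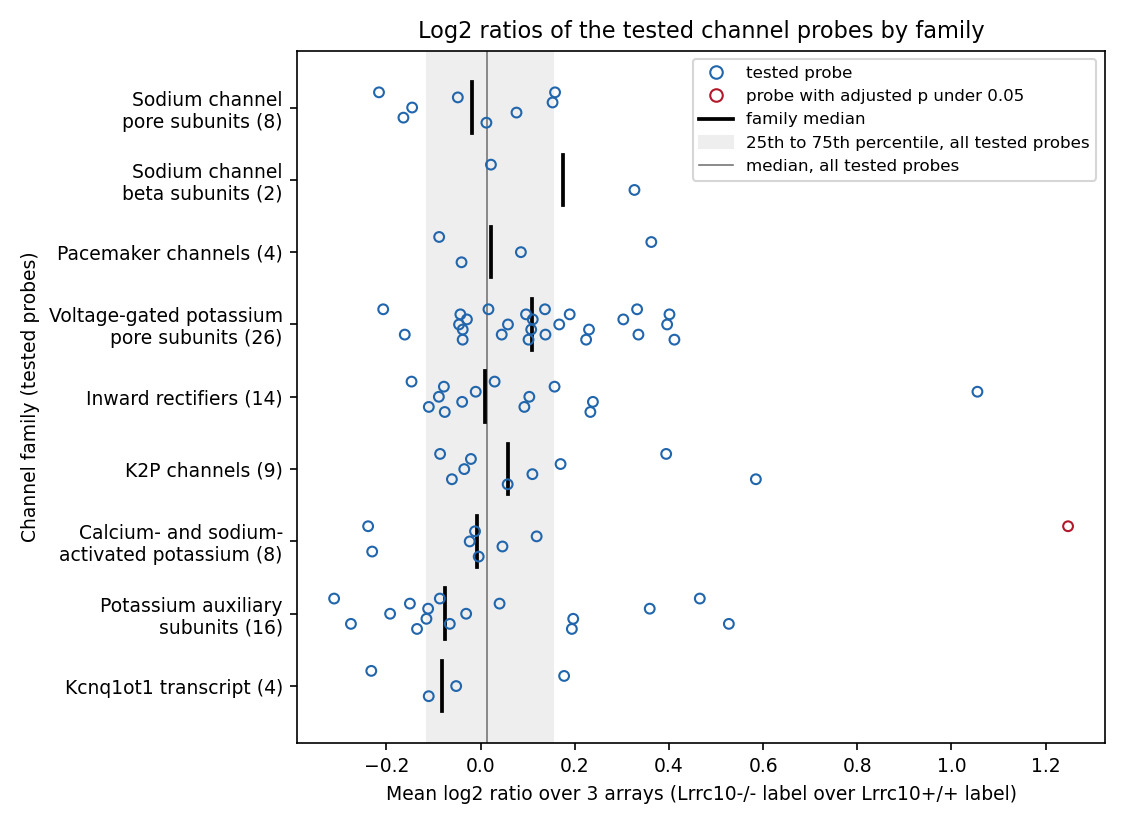
Mean log2 ratio over 3 arrays (Lrrc10-/- label over Lrrc10+/+ label) of each of the 91 tested probes, by channel family with the number of tested probes in brackets. Black bars are family medians, and the grey band spans the 25th to the 75th percentile of all tested probes. Most probes lie in or near the band, with 1 Kcnt1 probe (1.25, red) and 1 Kcnj4 probe (1.06) far to the right.

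Kcnt1, a sodium-activated potassium channel pore, held the single called probe. Probe A_52_P581412 gave 1018, 407 and 945 in the channel labelled Lrrc10-/- and 472, 189 and 138 in the channel labelled Lrrc10+/+. It was thus brighter in the first on each array, and the groups did overlap across arrays, since 472 on replicate 1 exceeds 407 on replicate 2. The log2 ratios were 1.18, 1.12 and 1.44, with a mean of 1.25 ± 0.17 (SD, n = 3; limma adjusted p = 0.0173), a 2.37-fold difference. The deposited log10 ratios were 0.334, 0.333 and 0.835. Without replicate 1 the log2 ratio was 1.28 at an adjusted p of 0.0837, and without replicate 2 it was 1.31 at 0.151. The call was also lost with the processed signals (1.66, adjusted p = 0.434) and with scanner and software version as a block (1.23, adjusted p = 0.0981).

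A second and dimmer tested Kcnt1 probe did not show this difference, but it was well above background on all arrays in 1 channel only. Probe A_51_P489003 gave 90.4, 55.7 and 17.6 in the channel labelled Lrrc10-/- and 78.8, 48.9 and 25.1 in the other. Its log2 ratios were 0.18, 0.05 and -0.09, with a mean of 0.05 ± 0.14 (SD, n = 3; limma adjusted p = 0.903). The third probe of the gene, A_52_P78699, was not tested. The 2 tested probes lie apart on chromosome 2 (mm9, plus strand), A_52_P581412 over chr2:25748074-25748704, a span of 631 bases for a 60-base probe, and A_51_P489003 at chr2:25771566-25771625. Their sequences are shown because the gene's result turns on which of them is read:
Kcnt1 A_52_P581412: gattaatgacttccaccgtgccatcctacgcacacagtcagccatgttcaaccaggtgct
Kcnt1 A_51_P489003: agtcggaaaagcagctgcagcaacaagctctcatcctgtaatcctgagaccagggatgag
The first holds 20 C among its 60 bases and the second 15. The median over tested probes was 13 C for channels, 12 for all and 16 for all probes called higher. The part of base content in the ratio was not tested beyond a fit corrected for it, in which the log2 ratio of the first probe was 1.17 (adjusted p = 0.0216).

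The inward-rectifier family, which sets the resting potential, had 22 probes for 14 genes, and 14 probes for 10 genes were tested. Their median log2 ratio was 0.01 and 7 of 14 were above 0, where 52.6% of all tested probes were. None was called, and 1 passed an unadjusted p under 0.05. That was Kcnj4, a strong rectifier. Probe A_51_P166740 gave 857, 1344 and 3104 in the channel labelled Lrrc10-/- and 560, 1301 and 560 in the channel labelled Lrrc10+/+, so the channels lay close on replicate 2 and far apart on replicate 3. The log2 ratios were 0.89, 0.25 and 2.03, with a mean of 1.06 ± 0.90 (SD, n = 3; limma adjusted p = 0.192). Without replicate 3 the mean was 0.57 (adjusted p = 0.0446). Probe A_52_P4285 gave log2 ratios of 0.10, 0.43 and 0.17, with a mean of 0.23 (adjusted p = 0.474), at signals of 60.7 to 164. The deposited position of the first probe spans only 25 bases (chr15:79314133-79314157, minus strand, mm9), and that of the second is chr15:79315390-79315449. Matching of either probe to the genome was not tested. The first 30 bases of the former and the whole of the latter are shown because the gene's 2 values differ by 0.82:
Kcnj4 A_51_P166740: gcatgactgtggtctgtgctcttgattctc
Kcnj4 A_52_P4285: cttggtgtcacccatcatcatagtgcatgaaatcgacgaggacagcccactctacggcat

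The other rectifiers known from the heart had means nearer to 0. The 2 probes of Kcnj8 had mean log2 ratios of 0.10 and 0.16, and Kcnj11, the second pore subunit of ATP-sensitive channels, had -0.08 ± 0.22 (SD, n = 3). The acetylcholine-activated rectifier genes Kcnj3 and Kcnj5, which slow the atrial and nodal beat, had -0.08 and -0.09. A second and dimmer Kcnj3 probe had -0.11, below 0 on all 3 arrays. This probe and the Kcnj5 probe were well above background on all arrays in Cy3 alone. For Kcnj2 and Kcnj12, which carry the main resting current of ventricular cells, the means were -0.04 and -0.01. Apart from the second Kcnj3 probe, all these differences were smaller than or close to the spread between arrays.

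Sodium channel pores were represented by 18 probes for 10 genes, of which 8 probes for 5 genes were tested. None was called and none passed an unadjusted p under 0.05, and their median log2 ratio was -0.02. Scn10a, a sensory neuron sodium channel also linked to cardiac conduction, had means of -0.16 and -0.22. The beta subunits attach the pore to the membrane skeleton and tune its gating. Among them Scn2b had log2 ratios of 0.24, 0.26 and 0.47, all above 0, with a mean of 0.33 ± 0.13 (SD, n = 3; limma adjusted p = 0.302). On replicate 1, however, its processed signals were 259 in the channel labelled Lrrc10-/- and 263 in the other. For Scn3b the log2 ratios were -0.36, 0.32 and 0.10.

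Among the pacemaker channels, 4 probes for 3 genes were tested. Hcn4, the principal pacemaker channel of the sinus node, had log2 ratios of 0.08, 0.62 and 0.39, higher on each array in the channel labelled Lrrc10-/-. The mean was 0.36 ± 0.28 (SD, n = 3; limma adjusted p = 0.33), and it passed only without adjustment. Its deposited log10 ratios were 0.047, 0.232 and 0.307. Hcn2 had -0.15, 0.32 and 0.09, and the brighter Hcn3 probe -0.01, 0.01 and -0.27, so neither kept 1 direction.

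Voltage-gated potassium channel pores formed the largest family, with 53 probes for 37 genes and 26 tested probes for 23 genes. None was called, 3 were higher at an unadjusted p under 0.05, and 19 of 26 lay above 0 (73.1%, against 52.6% of all tested probes), with a median log2 ratio of 0.11. Kcnd2, a pore of the fast transient outward current, gave 1593, 1233 and 1251 in the channel labelled Lrrc10-/- and 1082, 1026 and 1066 in the other. These groups did not overlap, with log2 ratios of 0.68, 0.34 and 0.21 and a mean of 0.41 ± 0.24 (SD, n = 3; limma adjusted p = 0.257). Without replicate 3 the mean was 0.51 (adjusted p = 0.0489). The dimmer probe of the gene had -0.20, 0.26 and -0.15.

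Kcna5, the pore of the ultrarapid delayed rectifier, had log2 ratios of 0.11, 0.49 and 0.40, a mean of 0.34 ± 0.20 (SD, n = 3; limma adjusted p = 0.324). On replicate 1 its deposited log10 ratio was -0.038, with signals of 1086 in the channel labelled Lrrc10-/- and 1184 in the other. The remaining probe at an unadjusted p under 0.05 was of Kcnc2, a fast-spiking channel of neurons, which was named after its values were seen. Its probe A_52_P545132 had 0.30, 0.70 and 0.19, and a neighbouring and almost equally bright probe, which represents the gene in counts with 1 probe per gene, had 0.11, 0.69 and 0.20. Kcna4, a pore of the slow transient outward current, had a mean of -0.21 ± 0.30. Kcnd3 had 0.22 ± 0.41 and Kcnh2, the rapid delayed rectifier, 0.10 ± 0.12 (SD, n = 3 each). For Kcnq1 the values were 0.37, 0.12 and -0.17. None of these 4 kept 1 direction on all arrays.

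K2P channels carry background potassium current. They had 15 probes for 11 genes, and 9 probes for 8 genes were tested, with a median log2 ratio of 0.06. Kcnk3, an acid-sensitive background channel of cardiomyocytes and smooth muscle, had ratios above 0 on each array with both of its probes. Probe A_51_P292221 gave 451, 372 and 588 in the channel labelled Lrrc10-/- and 280, 284 and 371 in the channel labelled Lrrc10+/+. These groups were parted only narrowly, by 372 on replicate 2 against 371 on replicate 3. The log2 ratios of this probe were 0.79, 0.51 and 0.46, with a mean of 0.58 ± 0.18 (SD, n = 3; limma adjusted p = 0.094).

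The second Kcnk3 probe, A_52_P639402, gave log2 ratios of 0.41, 0.32 and 0.46, with a mean of 0.39 ± 0.07 (SD, n = 3; limma adjusted p = 0.211). Its signals were 888, 438 and 607 in the channel labelled Lrrc10-/- and 616, 343 and 365 in the other. These groups overlapped across arrays. In the deposited log10 ratios both probes were at least 1.2-fold higher on all arrays, at 0.207, 0.118 and 0.200 for the first and 0.159, 0.107 and 0.221 for the second. Neither passed the adjusted threshold with all arrays at equal weight. The first did so when arrays were weighted by their scatter (0.61, adjusted p = 0.045) and without replicate 3 (0.65, adjusted p = 0.0122). Kcnk6 had -0.09 ± 0.24 and Kcnk1 0.11 ± 0.23, with the Kcnk1 probe above background on all arrays in Cy3 alone.

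Calcium- and sodium-activated potassium channel pores had 12 probes for 8 genes, with 8 probes for 5 genes tested and a median log2 ratio of -0.01. Apart from Kcnt1 none passed an unadjusted p under 0.05. Kcnn2, a small-conductance channel of atrial cells, had ratios below 0 on all arrays with its brighter probe, at -0.09, -0.05 and -0.55, a mean of -0.23 ± 0.28 (SD, n = 3; limma adjusted p = 0.529). Its second probe had a mean of -0.24. Kcnn1 had 0.12 ± 0.09. Kcnt2, the close relative of Kcnt1, had means of 0.00 and -0.02.

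The auxiliary subunits had 22 probes for 16 genes, with 16 probes for 13 genes tested, a median log2 ratio of -0.08 and 6 of 16 above 0. None was called, 2 were higher (Kcne3 and Kcnip4) and 1 lower at an unadjusted p under 0.05. The Kcnip4 probe was tested only through Cy5, the channel in which it was the brighter. The lower one was Kcne1. Its signals were 9892, 18521 and 23024 in the channel labelled Lrrc10-/- and 10177, 19973 and 31389 in the other, lower on each array but with wide overlap between groups. The log2 ratios were -0.24, -0.24 and -0.35, a mean of -0.28 ± 0.06 (SD, n = 3; limma adjusted p = 0.363). Its second and dimmer probe gave -0.28, 0.17 and -0.09.

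Kcne3, another single-span partner of voltage-gated pores, also had ratios above 0 on each array with both of its probes. Probe A_52_P243425 gave 893, 1484 and 3309 in the channel labelled Lrrc10-/- and 715, 1182 and 1644 in the other. The log2 ratios were 0.32, 0.38 and 0.88, a mean of 0.53 ± 0.31 (SD, n = 3; limma adjusted p = 0.191). The brighter probe, A_51_P336599, had 0.27, 0.06 and 0.75, and a mean of 0.36 ± 0.35. Both probes were highest on replicate 3. The former probe maps to chr7:107332940-107332999 on the plus strand of mm9, and the latter to chr7:107333062-107333121. The former is shown because its ratio was the larger, and the capitals mark a stop triplet at its end:
Kcne3 A_52_P243425: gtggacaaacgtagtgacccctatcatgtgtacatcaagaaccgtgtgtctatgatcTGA

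Kcnip4, a calcium-binding partner of Kv4 pores best known from brain, had log2 ratios of 0.71, 0.53 and 0.15, a mean of 0.47 ± 0.28 (SD, n = 3; limma adjusted p = 0.228). Its signals were low, at 143, 40.3 and 51.5 in the channel labelled Lrrc10-/- and 60.3, 13.3 and 6.48 in the other, and only 1 of the 3 Cy3 signals was well above background. The probe was thus tested only through Cy5, where it is the brighter, and its ratio is given as a description. The deposited log10 ratios were accordingly larger, at 0.375, 0.480 and 0.900. Kcne2 had 0.04 ± 0.15, and Kcne1l, on which less is known, 0.19 ± 0.29. Kcnab1 and Kcnab2, cytoplasmic beta subunits, had ratios below 0 on each array, with means of -0.19 and -0.15. For Kcnab2 the log2 ratio on replicate 2 was only -0.01, and the deposited log10 ratio there was 0.026. Neither gene passed the test. Kcns3, a silent voltage-gated subunit, had a mean of -0.16, but it was above background on all arrays in Cy3 alone.

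Kcnmb4, a beta subunit of large-conductance channels, gave 2540, 2639 and 8652 in the channel labelled Lrrc10-/- and 3173, 3146 and 7864 in the channel labelled Lrrc10+/+. The log2 ratios were -0.61, -0.43 and 0.10, a mean of -0.31 ± 0.37 (SD, n = 3; limma adjusted p = 0.447). Without replicate 3 its mean was -0.52 (adjusted p = 0.0417). Its probe lies on chromosome 10, 0.629 Mb from the Lrrc10 probe (mm9), and the probes of Kcnc2 lie 4.58 to 4.59 Mb away. No other channel probe lay within 10 Mb.

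Among the genes known for heart currents, 29 of 34 on the array had a tested probe. None was called. With 1 probe per gene, 6 were higher at an unadjusted p under 0.05, namely Kcnj4, Kcnd2, Kcnk3, Hcn4, Kcna5 and Scn2b. In the other direction 1 was lower, Kcne1. Counted by probe, 8 of the list's 41 tested probes were higher at this threshold and 1 was lower. Over all tested probes the shares were 9.07% higher and 4.26% lower. Of the 29 genes 16 lay above 0, beside the 52.6% of all tested probes. The median log2 ratio was 0.04 for this list, beside 0.01 for all tested probes. By array the list's medians were -0.04, 0.13 and 0.09.

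**Figure D3:**
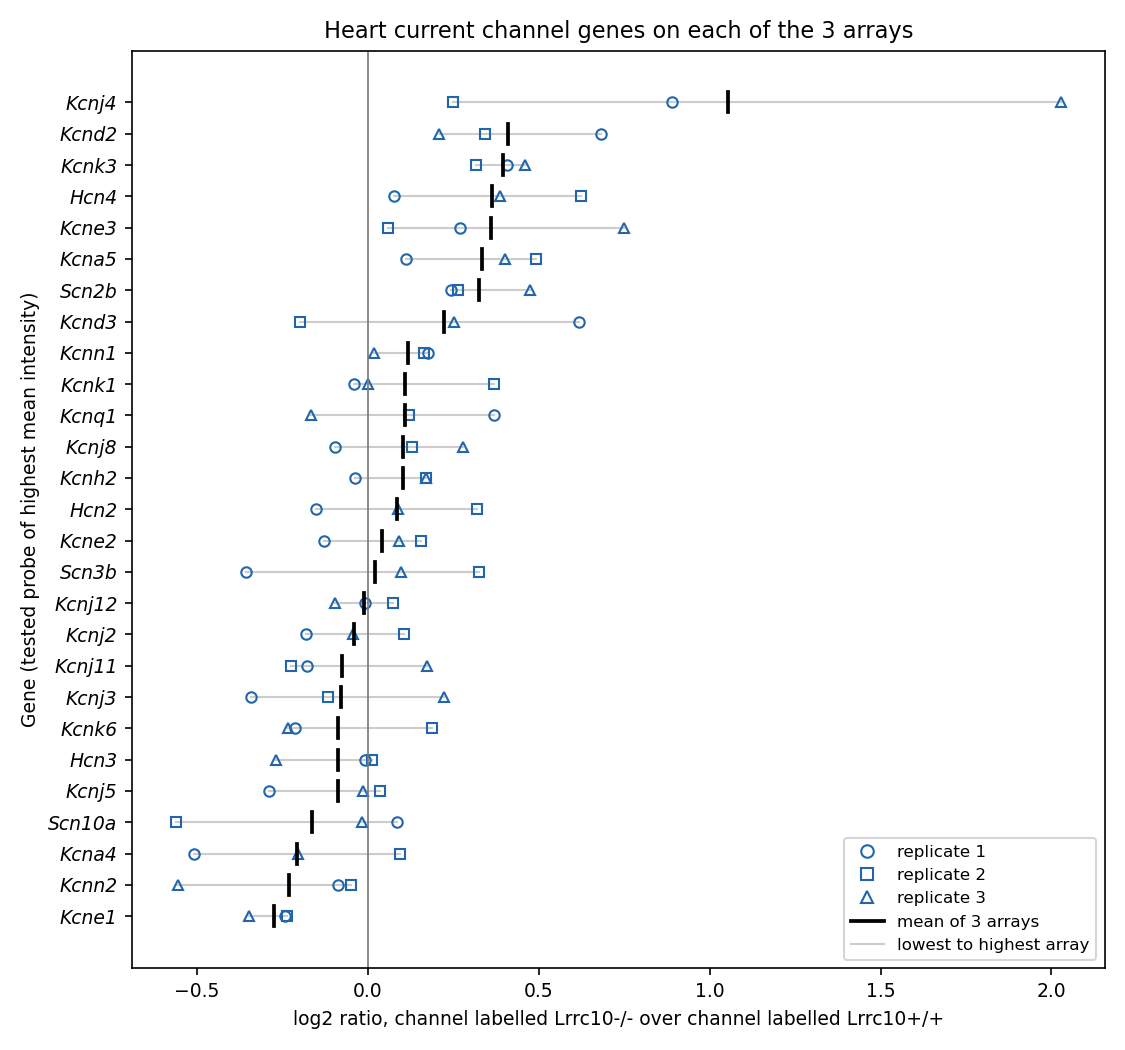
Log2 ratio (Lrrc10-/- label over Lrrc10+/+ label) on each of the 3 arrays for 27 heart current genes with a tested probe, with a black bar at the mean and a grey line from the lowest to the highest array. Kcnj4 has the highest mean (1.06) and the widest spread, and Kcne1 the lowest (-0.28) with its arrays close together.

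For 19 genes with more than 1 tested probe, the probes could be compared with each other on the same arrays. In 14 genes the means of all probes had 1 sign. The median gap between the highest and the lowest probe was 0.17 on the log2 scale, and it was over 0.5 for 2 genes, Kcnt1 and Kcnj4. Kcnd2 came next at 0.44, with means on both sides of 0. Among the genes with close values were Kcnn2, with a gap of 0.01, Kcnt2 (0.02), Kcnj3 (0.03) and Kcnc2 (0.06). The 2 Kcnc2 probes are neighbours on the chromosome. Kcnq1ot1 had 4 tested probes with means of 0.18, -0.05, -0.11 and -0.23. Its brightest probe gave log2 ratios of 1.45, 0.43 and -1.35, so replicate 3 opposed the others. Without it the mean was 0.94 (adjusted p = 0.00467).

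**Figure D4:**
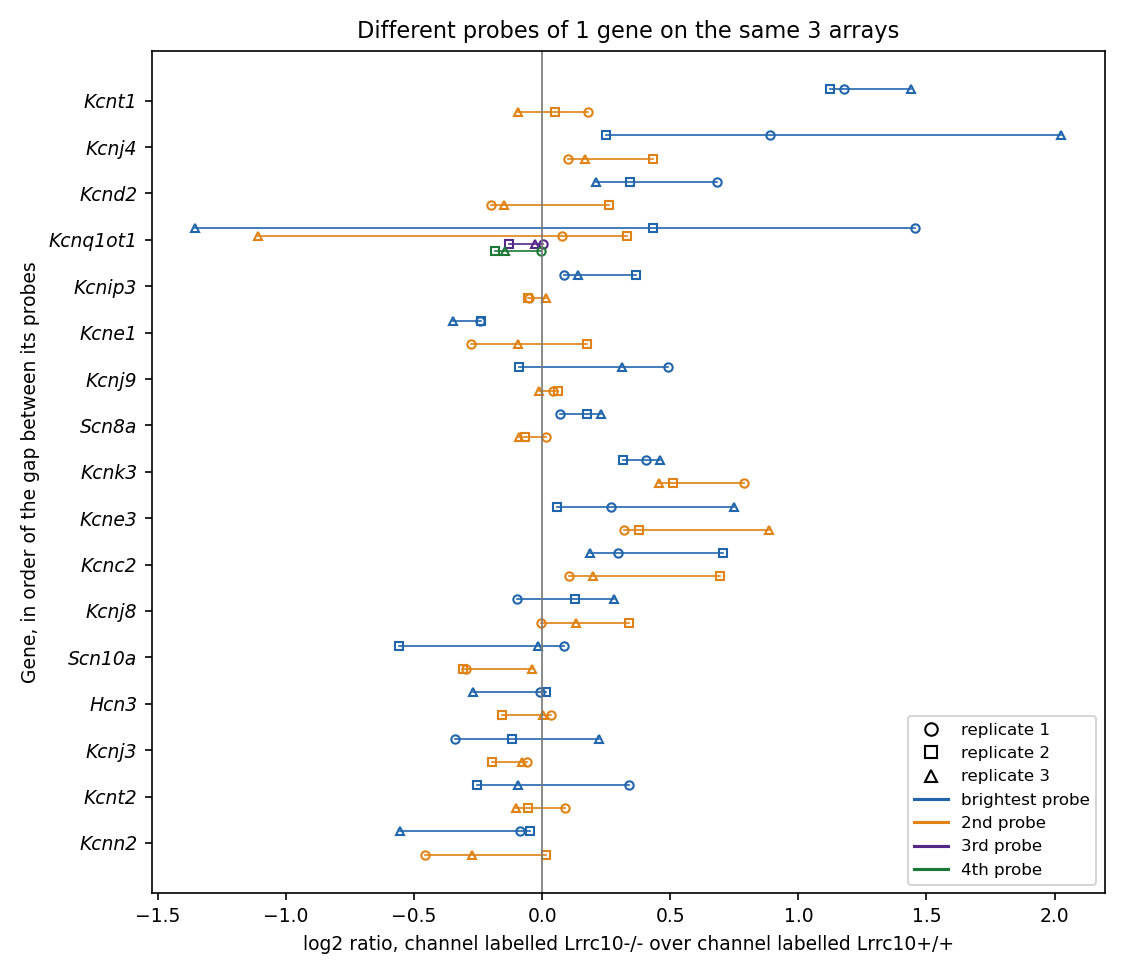
Log2 ratio (Lrrc10-/- label over Lrrc10+/+ label) on each array for every tested probe of 17 genes with more than 1, 1 line per probe coloured by its place in brightness. The lines of the Kcnt1 probes (means of 1.25 and 0.05) lie apart, those of Kcnn2 and Kcnc2 lie together, and the brightest Kcnq1ot1 probe spans -1.35 to 1.45.

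Channel partners outside the families were read beside them. Of 22 such genes, among them the anchoring ankyrins, the sodium channel regulators Fgf12 and Fgf13 and the sulfonylurea receptors that complete ATP-sensitive channels, all were tested and none was called. With 1 probe per gene 1 was higher at an unadjusted p under 0.05, which was Fgf12 (0.40). The other tested Fgf12 probes, above background on all arrays in Cy3 alone, had means of 0.09 and 0.12. The median log2 ratio of the list was -0.03, with saturated spots in 2 of the representing probes. Over all 43 tested probes of the list, 2 were higher and 4 lower, where all tested probes gave 9.07% and 4.26%. Of the lower ones 3 were of Fgf13, which modifies the gating of sodium channels, with mean log2 ratios of -0.41, -0.29 and -0.35, each below 0 on all 3 arrays. The probe that represents Fgf13 had a mean of -0.10. Dlg1, a scaffold protein that anchors channels, had a probe in each direction (0.46 and -0.33). The receptor Abcc9, which pairs with Kcnj8 and Kcnj11, had log2 ratios of -0.14, -0.07 and -0.81 with the probe that represents it. Of 21 genes that pattern the conduction system or carry its calcium and gap-junction currents, 20 were tested, none was called and the median was -0.06. With 1 probe per gene, 1 was higher at an unadjusted p under 0.05, Cacna2d2 (0.48), an auxiliary calcium channel subunit. Its log2 ratios were 0.25, 0.12 and 1.09, so replicate 3 weighed most. A dimmer tested Cacna2d2 probe had 0.05, -0.26 and 0.65, a mean of 0.15. Over all 32 tested probes of the list, 2 were higher and 1 lower, beside the same shares of all tested probes. The further higher one was of Cacna1h (0.58). A brighter Cacna1h probe had -0.22, and the dimmest, tested through Cy3 alone, had -0.11, each below 0 on all 3 arrays. The lower one was of Cacna1c (-0.42), whose representing probe had -0.06.

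Markers of other cells that the hearts could hold were also measured. Neuronal markers were mostly dim, with 4 of 8 tested and a median log2 ratio of 0.01. Mean log2 signals over all 8 were 5.22 to 6.90. Of the tested ones, Tubb3 and Elavl4 were brighter, with geometric means of 540 and 363 against a median of 164 for all gene probes. Th and Dbh, which define noradrenergic neurons, were not tested. All 7 Schwann cell and neural crest markers were tested, with a median of 0.09. Medians were 0.02 for 6 endothelial and 0.03 for 5 epicardial markers. Of the 9 cardiomyocyte markers 5 had saturated spots, which narrow a ratio, and their median is not read. For 5 smooth muscle, 4 erythroid and 6 skeletal muscle markers the medians were -0.17, -0.24 and -0.04. In each of these 3 lists 1 marker had saturated spots. No marker was called. The part of these cell types in the channel ratios was not tested.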

How the data were processed

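Per the file headers, the deposited intensity values came from Agilent Feature Extraction, version 9.1.3.1 on replicate 1 and 10.7.3.1 on replicates 2 and 3, while the submitters' processing notes name 9.5. The authors' software gave processed intensities, background flags and a log10 ratio of Cy5 over Cy3 for each spot, and the deposited series table equals these log10 ratios. Log2 ratios were computed from the deposited mean intensities with limma 3.58.1 (R 4.3.3): normexp background correction on the median local background (offset 50), loess within arrays with controls at weight 0, and averaging of spots per probe. Non-uniform spots were left out. Probes well above background in Cy5 or in Cy3 on all 3 arrays were tested (lmFit, eBayes, two-sided). The 3 ratios per probe limit the precision. Symbols were updated through RefSeq (GRCm38.p6), which changed 3 of 163, and 144 accessions matched. Probe positions and sequences are those of the files (mm9). Genes named are those called, the 15 brightest, the heart current list, and the 5 largest rises and falls in 1 direction on all arrays. A gene is represented by its tested probe of highest mean intensity after background correction. Some genes that this rule picks are not reported here, though counts and medians include them. The members, lists, tests and alternatives were chosen with earlier results of these data known. Scripts were tested on simulated data.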

Additional observations from a re-analysis of the deposited data

How the results depend on the processing

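The count of channel probes called higher was 0 with the processed signals, the deposited series table, no background correction, scaling between arrays, the methods' t-test, and scanner and software version as a block. It was 2 (Kcnk3 and Kcnt1) with array weights, and 0 to 6 when 1 array was left out. The count called lower was 0 to 1 when 1 array was left out. Without replicate 3, 6 were higher (Kcnt1, Kcnk3, Kcnj4, Kcnip4, Kcnd2 and Kcnq1ot1) and Kcnmb4 was lower, with the Kcnip4 probe tested through Cy5 alone, and the causes were not tested. The count of channel probes well above background in both channels was 70 to 120 when 1 array was left out, the highest without replicate 3. The median log2 ratio of channel probes was 0.02 to 0.04 over the arrays left out. Over all probes tested, 395 were called higher and 1 lower, with 0 to 1556 and 0 to 248 across the alternatives. Lrrc10 was at 5.21 (adjusted p = 0.27) with the processed signals and the series table, 4.62 (0.425) with scaling and 4.41 (0.504) with the methods' t-test, and 4.22 to 4.62 when 1 array was left out. Kcnt1 was called in 8 of 16 alternatives, at 1.15 to 1.66 and adjusted p up to 0.504. Leaving out 1 array changed at most 1 of the 20 brightest genes. Of 856 comparisons of single probes with an alternative, 841 kept their side of the threshold, 8 lost it, 7 gained it and no called value reversed, while uncalled values changed sign 57 times. Each ratio is taken within 1 array, so the test is itself of paired samples. Dim signals, under the background flag on replicate 3 above all, limit what could be tested.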
